A study of Mus musculus with 5 samples.

Results

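The 10 genes described here are parts of the JAK-STAT pathway and genes that it is known to switch on: the kinases Jak1, Jak2 and Jak3, the transcription factors Stat3, Stat5a and Stat5b, the feedback inhibitors Socs1, Socs3 and Cish, and the kinase gene Pim1. They were chosen by symbol, as the pathway downstream of the cytokine oncostatin M, and all 10 were found once each among the 27998 genes of the tables. Their levels were followed across 5 kinds of cell (T, dendritic, macrophage, keratinocyte and mural) and 5 libraries.

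A Janus kinase (JAK) sits on the inner end of a cytokine receptor. When a cytokine joins the receptor chains, the kinases phosphorylate STAT proteins, which pair, enter the nucleus and bind target genes. Jak3 works with the common gamma chain of the interleukin-2 family of receptors, Jak2 serves receptors such as that of granulocyte-macrophage colony-stimulating factor, and Jak1 serves many families, including receptors built on gp130 such as the oncostatin M receptor. Socs1, Socs3 and Cish are classic STAT targets whose products damp the same receptors, so their transcripts are often read as a trace of recent signalling, while protein phosphorylation itself is not seen in RNA. In skin the pathway is known for its part in holding hair follicle stem cells at rest.

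The study compared mouse skin immune cells across telogen, the resting phase of the hair cycle. Live CD45+ cells from the dermis of C57BL/6 mice were captured in 10x droplets with 3′-end chemistry. There was 1 library for each of the ages P45, P50, P63 and P80, and 1 labelled P50_Depil5D, from depilated skin. The labels do not say whether P50 is the age at depilation or at collection, nor how many mice made up a library. No gene was altered in any group. With 1 library per condition there was no replicate of an age or of depilation, so ages and depilation are described by ratios with counting intervals and no p-value. Cell kinds were compared within libraries.

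Of 6223 barcodes, 6162 cells passed the filters, and each library held between 1032621 and 7491878 UMIs (unique molecular identifiers, each counting 1 captured transcript). A cell entered a gate when it had a UMI of at least 3 of that class's 12 markers and at least 2 more than of any other class. This placed 1857 cells in the T gate, 123 in the dendritic, 704 in the macrophage, 1051 in the keratinocyte and 14 in the mural gate. Markers kept out of the gates followed the names: Cd2 stood at 372 CPM (UMIs per 1000000 of the gate's UMIs) in the T gate and at 4.88 to 31.6 in the dendritic, macrophage and keratinocyte gates, Csf1r was highest in the macrophage gate at 351, Krt14 in the keratinocyte gate at 4202, and Acta2 in the mural gate at 8900. Cd74, of antigen-presenting cells, was at 41878 in the dendritic gate and also at 30544 in the macrophage gate. Keratinocytes and mural cells are not CD45+ cells, and Ptprc, which encodes CD45, was at 27.2 in the keratinocyte gate against 490 in the T gate.

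Barcodes were shared between libraries. In the keratinocyte gate 564 of 1051 cells carried a barcode found in another library, and for 556 of these the partner was in the keratinocyte gate too. Outside P45 such cells made up 69.6% of the keratinocyte gate. Whether these are the same cells was not settled, so the keratinocyte sums of those 4 libraries may not be independent, and comparisons with keratinocytes are also given without the cells that share a barcode. In the other gates 43 T cells, 7 dendritic cells and 31 macrophages had a shared barcode.

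The sequences next to the transcription starts of the 3 feedback inhibitors are shown first, because these genes are read as STAT targets. They are RefSeq sequences of build GRCm38.p6, written 5′ to 3′ on the gene's own strand. The first stretch is the 250 bases before the start site of Socs3, chr11:117969367-117969616, minus strand. Capitals mark a match to TTCNNNGAA, the palindrome that STAT5 and its relatives are known to bind, which reads the same on both strands.
Socs3: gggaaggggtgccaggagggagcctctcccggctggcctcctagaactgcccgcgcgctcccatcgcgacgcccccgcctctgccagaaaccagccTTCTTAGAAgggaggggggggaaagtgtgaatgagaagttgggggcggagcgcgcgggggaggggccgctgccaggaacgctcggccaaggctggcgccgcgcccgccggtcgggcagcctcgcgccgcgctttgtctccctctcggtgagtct
The match begins 154 bases before the start site. Cish had no match in its upstream window but 2 matches just inside the RefSeq start site. They lie at positions 1 and 12 when the start site is counted as 1, chr9:107296659-107296678, plus strand.
Cish: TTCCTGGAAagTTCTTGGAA
Of 32851 RefSeq promoter windows, 7.02% held the motif in the 250 bases upstream, and 8.30% held it in the 300 bases that include 50 past the start. Of the 10 genes, only Socs3 held it in the first window, and Socs3 and Cish in the second. At least 2 matches in the 300 bases were found in 0.457% of windows. Socs1 had no match to that motif. Its 250 bases before the start, chr16:10785537-10785786, minus strand, held 2 overlapping matches to GAAANNGAAA, the core of the element bound by interferon regulatory factors, which was looked for after the sequence had been read and on both strands; capitals mark them.
Socs1: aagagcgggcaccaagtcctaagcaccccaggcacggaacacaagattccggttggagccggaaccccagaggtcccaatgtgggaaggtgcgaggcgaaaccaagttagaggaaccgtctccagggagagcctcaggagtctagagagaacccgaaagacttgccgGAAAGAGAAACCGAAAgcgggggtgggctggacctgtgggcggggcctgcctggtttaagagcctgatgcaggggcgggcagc
That motif was in 2.98% of all upstream windows. A match is a description of letters, and no binding was measured. Upstream and inside are meant here by the RefSeq start sites. In GENCODE vM21 Cish begins earlier, at 107296026, and Socs3, on the minus strand, reaches to 117970047, past the window shown. Whether a match lies before or inside these genes thus depends on the start site used.

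Levels are CPM of the gate in a library, and they are compared for 1 gene at a time, since genes differ in how well 3′ ends are captured. Gates were compared by edgeR's quasi-likelihood test on the summed counts of each gate and library, with the library as a block and p-values adjusted by the Benjamini-Hochberg method over 12990 genes. A call is an adjusted p under 0.05. The dendritic gate of P80, with 6 cells, and the mural gate stayed out of the test. The spread in this test is between libraries of different age, not between replicates of 1 condition. Of 60 comparisons, 10 genes in 6 pairs of gates, 30 were called. Among all genes tested, the share called was 13.6% for T against dendritic, 25.1% for T against macrophage, 45.8% for T against keratinocyte, 3.20% for dendritic against macrophage, 25.6% for dendritic against keratinocyte and 38.4% for macrophage against keratinocyte. Against these, 6, 4, 7, 1, 7 and 5 of the 10 genes were called in the same order of pairs. With unscaled totals in place of TMM factors, the median shift of log2 differences over all genes was at most 0.21 in a pair. No called member changed direction, but the call of Socs3 in T against macrophage was lost. The share of all calls that were higher in the first gate went from 52.8% to 65.3% for T against macrophage. For dendritic against macrophage it went from 21.9% to 35.9%.

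**Figure D1:**
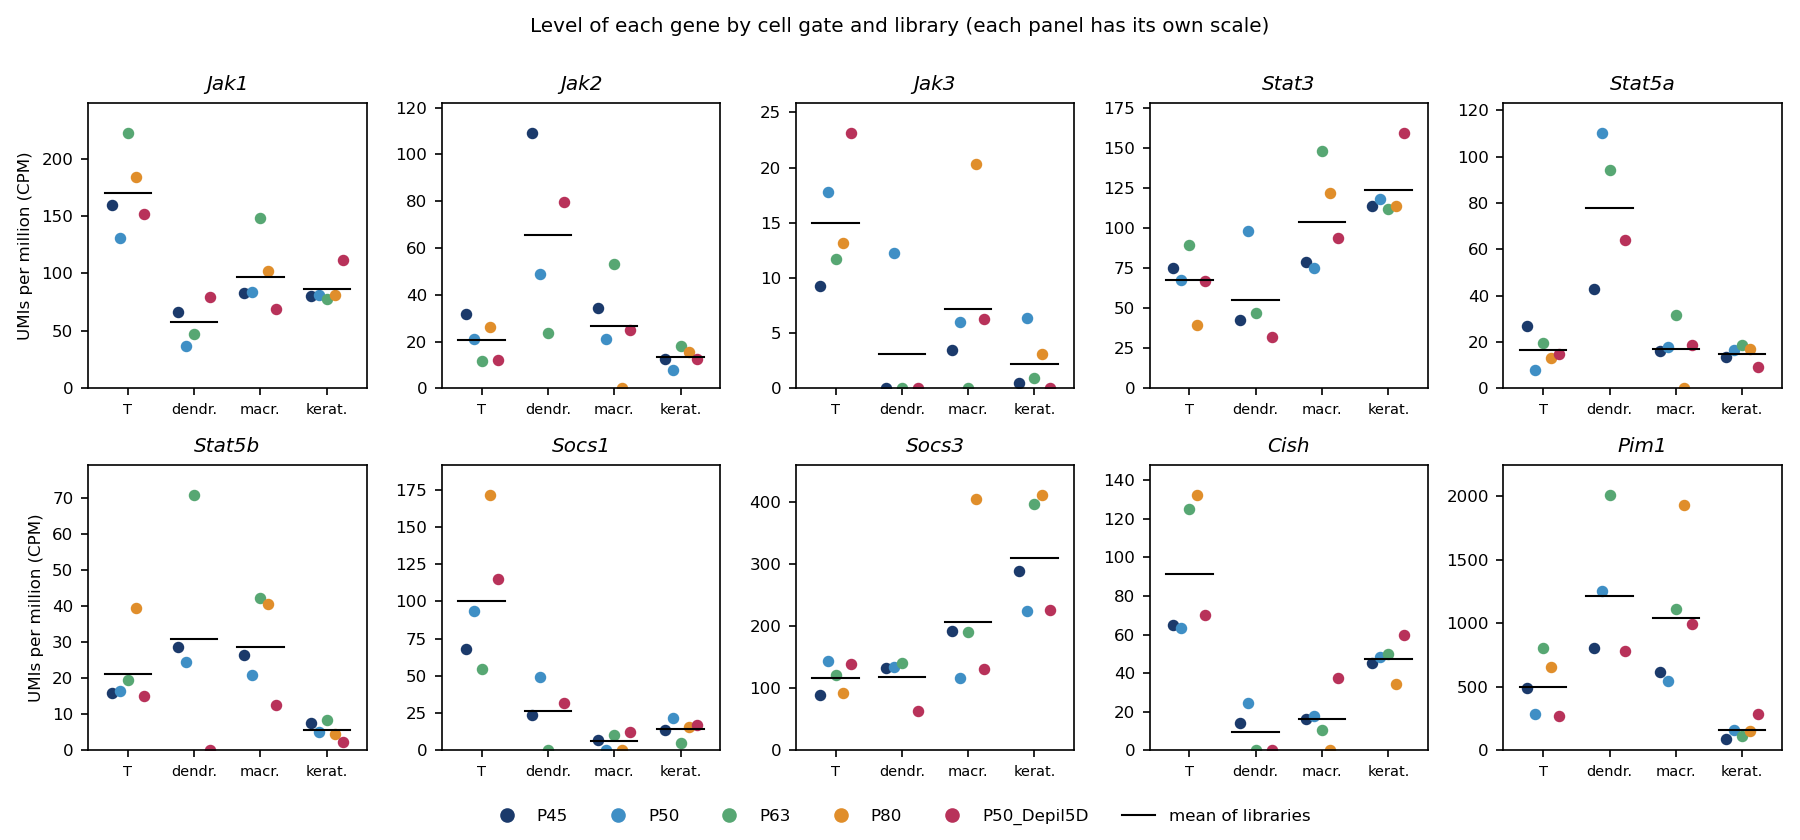
Level of each gene in CPM (vertical axis, starting at 0 with its own scale in each panel) in 4 cell gates, with 1 point per library and a bar at the mean of the libraries. Socs1 and Cish sit highest in T cells, Socs3 in keratinocytes, Pim1 in dendritic cells and macrophages, and the 4 dendritic points of Stat5a lie above all 5 T-cell points.

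Among the kinases, Jak1 was a transcript of T cells more than of the other cells. In T cells it was at 160, 131, 222, 184 and 152 CPM in P45, P50, P63, P80 and P50_Depil5D. In dendritic cells it was at 66.6, 36.8, 47.2 and 79.8 in P45, P50, P63 and P50_Depil5D. The lowest T-cell library thus lay above the highest dendritic one tested. The difference was 1.41 on the log2 scale (SE 0.37, edgeR adjusted p = 0.00223). The dendritic sum of P80, left out at 6 cells, was at 236 from 3 UMIs (exact interval 48.6 to 689). In keratinocytes Jak1 ranged from 77.6 to 112, below every T-cell library, with a log2 difference of 0.68 (SE 0.23, edgeR adjusted p = 0.00972); this call was lost without P63, where the adjusted p was 0.137. Against macrophages, at 68.9 to 148, T cells were higher in 5 of 5 libraries, but the log2 difference of 0.64 (SE 0.27) missed the threshold (edgeR adjusted p = 0.0624). Jak1 overlaps Raver2, a counted gene on the opposite strand, so strand bears on its counts too.

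Jak2 ran the other way. In dendritic cells it was at 109, 49.0, 23.6 and 79.8 in P45, P50, P63 and P50_Depil5D, from 23, 4, 1 and 5 UMIs. T cells ranged from 11.7 to 31.6, macrophages from 0 to 53.0 and keratinocytes from 7.63 to 18.0. Dendritic cells were above T cells in 4 of 4 libraries although the ranges overlapped through the single UMI of P63 (log2 difference of T to dendritic −1.84, SE 0.42, edgeR adjusted p = 0.000328). The difference of dendritic cells to keratinocytes was 2.29 (SE 0.43, edgeR adjusted p = 2.57e-06), and that of macrophages to keratinocytes was 1.07 (SE 0.38, edgeR adjusted p = 0.0164). P45 held most of the dendritic UMIs, and without it both dendritic calls were lost, with adjusted p = 0.113 against T cells and 0.0597 against keratinocytes. The macrophage call was lost in 4 of 18 alternative analyses, with the highest adjusted p at 0.214; they were DESeq2, a stricter gate, and leaving out P45 or P50.

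Jak3, the gamma-chain kinase, was scarce everywhere. T cells held 10, 16, 3, 1 and 23 UMIs in P45, P50, P63, P80 and P50_Depil5D, which gave 9.29, 17.8, 11.7, 13.2 and 23.1 CPM. Dendritic cells held 1 UMI in all, and keratinocytes 9, with levels of 0 to 6.36. Every T-cell library lay above every keratinocyte library, and this difference was called (log2 2.74, SE 0.52, edgeR adjusted p = 1.51e-06), with and without shared barcodes (2.74 and adjusted p = 7.71e-05 without). Against dendritic cells the log2 difference of 2.30 (SE 1.13) was not called (edgeR adjusted p = 0.176), and at 1 UMI the depth could not show more. With a broader dendritic gate of 903 cells, chosen after seeing the data, it was called at 2.26 (edgeR adjusted p = 0.00380). Jak3 shares its locus with Insl3, an overlapping gene on the same strand.

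Of the transcription factors, Stat3 was highest in keratinocytes and Stat5a in dendritic cells. Stat3 in keratinocytes was at 114, 118, 112, 114 and 159 in P45, P50, P63, P80 and P50_Depil5D. In T cells it was at 75.2, 67.7, 89.6, 39.5 and 67.2 in the same order. No T-cell library reached the lowest keratinocyte value (log2 difference of T to keratinocyte −1.03, SE 0.25, edgeR adjusted p = 0.000130; −0.92 and adjusted p = 0.00567 without shared barcodes). Dendritic cells, at 31.9 to 98.1, were also below keratinocytes (−1.39, SE 0.38, edgeR adjusted p = 0.00206). Macrophages, at 74.9 to 148, overlapped with keratinocytes, and neither their difference to keratinocytes (−0.45, SE 0.26) nor that of T cells to macrophages (−0.58, SE 0.28) was called.

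Stat5a, whose product carries the signals of granulocyte-macrophage colony-stimulating factor and of interleukin-2, was at 42.8, 110, 94.3 and 63.9 in dendritic cells of P45, P50, P63 and P50_Depil5D, from 9, 9, 4 and 4 UMIs. T cells had 26.9, 7.77, 19.5, 13.2 and 15.0 in P45, P50, P63, P80 and P50_Depil5D. Keratinocytes ranged from 9.21 to 18.9 and macrophages from 0 to 31.8. As measured, the lowest dendritic library tested thus lay above the highest library of each other gate. For macrophages counting error does not secure this. Their 0, in P80, allows up to 60.9 CPM, above the lowest dendritic value. Their 31.8, in P63, came from 3 UMIs (exact interval 6.56 to 93.0). The dendritic sum of P80, left out at 6 cells, held 0 UMIs, which allows up to 236 CPM. The log2 difference of T to dendritic cells was −1.96 (SE 0.45, edgeR adjusted p = 0.000301), and dendritic cells exceeded macrophages by 1.75 (SE 0.48, edgeR adjusted p = 0.0137) and keratinocytes by 2.02 (SE 0.44, edgeR adjusted p = 7.35e-05). Stat5a was the only 1 of the 10 genes called between dendritic cells and macrophages. That call was lost without P45 or without P50 (highest adjusted p = 0.193), and the call against T cells was lost without P50 (adjusted p = 0.0835). In the broader dendritic gate the level was lower, at 40.7 ± 23.0 (SD, n = 5 libraries), and the same 3 differences were called. Stat3 and Stat5a overlap at their 3′ ends on opposite strands of chromosome 11, from 100885098 in Stat3 to 100885169 in Stat5a (GENCODE vM21, GRCm38). The sources used here do not say whether counting used strand, so reads of that overlap could be given to either gene, and the values of both are uncertain to that extent.

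Stat5b, the near twin of Stat5a, was scarce in keratinocytes, at 7.68, 5.09, 8.52, 4.67 and 2.30 in P45, P50, P63, P80 and P50_Depil5D. T cells had 15.0 to 39.5 and macrophages 12.5 to 42.4, each above every keratinocyte library. Both differences were called, at a log2 of 1.44 for T cells (SE 0.39, edgeR adjusted p = 0.00103) and 2.08 for macrophages (SE 0.42, edgeR adjusted p = 8.53e-06). Single libraries were thinly counted. The 39.5 of T cells, in P80, came from 3 UMIs, and the 42.4 of macrophages, in P63, from 4. The macrophage 12.5, in P50_Depil5D, came from 2 UMIs. Its exact interval of 1.52 to 45.3 spans every keratinocyte value. Dendritic cells ranged from 0 to 70.7, from 11 UMIs in all; their difference to keratinocytes, 2.03 (SE 0.62, edgeR adjusted p = 0.00739), was lost in 4 of 17 alternatives, among them the one without shared barcodes (1.73, adjusted p = 0.0591).

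The feedback inhibitors were split between cell kinds. Socs1, which blocks JAK activity and is a well-known brake on interferon and interleukin-2 signals, was at 67.8, 93.2, 54.5, 171 and 115 in T cells of P45, P50, P63, P80 and P50_Depil5D. Macrophages held 8, 0, 1, 0 and 2 UMIs in the same order, or 6.87, 0, 10.6, 0 and 12.5 CPM. A count of 0 allows up to 8.98 CPM in P50 and, in the shallower P80 sum, up to 60.9. All 5 T-cell libraries lay above all macrophage libraries, and the log2 difference of 3.54 (SE 0.44, edgeR adjusted p = 1.34e-13) was the widest of the 60. Keratinocytes were at 4.73 to 21.6 (log2 difference of T to keratinocyte 2.41, SE 0.29, edgeR adjusted p = 9.87e-15), and dendritic cells at 0 to 49.0 (1.58, SE 0.47, edgeR adjusted p = 0.0105, against 0.0523 by DESeq2).

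Per cell the same order held. After thinning each cell to 1000 UMIs, 8.81% of T cells (exact interval 7.45 to 10.3) had a Socs1 UMI, compared with 0.754% of macrophages (0.245 to 1.75), which were deeper as measured (median 2274 UMIs, against 1423 in T cells), 1.47% of keratinocytes and 1.63% of dendritic cells. Before thinning the T-cell share was 13.5%. Shallower cells were left out of the thinned shares, 291 of them in the T gate. These intervals cover counting error in pooled cells only.

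Cish, the inhibitor most tied to STAT5, was also a T-cell transcript, though less sharply. T cells had 65.0, 63.3, 125, 132 and 70.2 in P45, P50, P63, P80 and P50_Depil5D. Macrophages had 16.3, 18.0, 10.6, 0 and 37.6 in the same order, all below the lowest T-cell value (log2 difference of T to macrophage 1.81, SE 0.36, edgeR adjusted p = 8.23e-06). Dendritic cells had 14.3 and 24.5 in P45 and P50, and 0 in P63 and P50_Depil5D, where 0 UMIs allow up to 70.7 and 47.9 CPM.

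The difference of T to dendritic cells was 2.56 (SE 0.57, edgeR adjusted p = 0.000222). Keratinocytes came between, at 45.1, 48.4, 50.1, 34.2 and 59.9 in P45, P50, P63, P80 and P50_Depil5D. They exceeded dendritic cells (log2 difference of dendritic to keratinocyte −2.06, SE 0.59, edgeR adjusted p = 0.00400) and macrophages (−1.30, SE 0.36, edgeR adjusted p = 0.00137). The dendritic call was lost with a looser gate or an unmixed one (highest adjusted p = 0.0783). T cells were above keratinocytes in 5 of 5 libraries, but the log2 difference of 0.51 (SE 0.26) was not called (edgeR adjusted p = 0.0958); without shared barcodes it was 0.74 and called (adjusted p = 0.0443). Cish overlaps the antisense gene Gm17041, so strand bears on its counts as well.

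Socs3, the inhibitor of gp130 receptors, was lower in T cells than in keratinocytes. Keratinocytes were at 290, 225, 398, 411 and 226 in P45, P50, P63, P80 and P50_Depil5D. T cells were at 89.2, 144, 121, 92.1 and 139 in that order, so their highest value was below the lowest of keratinocytes (log2 difference of T to keratinocyte −1.48, SE 0.23, edgeR adjusted p = 1.99e-09; −0.91 and adjusted p = 0.00310 without shared barcodes). Dendritic cells ranged from 63.9 to 141 and were also below keratinocytes (−1.45, SE 0.31, edgeR adjusted p = 4.20e-05).

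In macrophages Socs3 was at 192, 117, 191, 406 and 132, below keratinocytes of the same library in 5 of 5 libraries (−0.79, SE 0.24, edgeR adjusted p = 0.00369). Without shared barcodes that difference was −0.38 and no longer called (adjusted p = 0.319). T cells were below macrophages in 3 of 5 libraries only, and the call there (−0.70, SE 0.25, edgeR adjusted p = 0.0271) was lost in 11 of 18 alternatives. Genes known to respond to tissue handling (immediate early and heat shock genes) differed between gates too. The summed level of 10 of them was 8687 to 14438 in keratinocytes and 5322 to 11781 in macrophages. It was 4347 to 5746 in T cells and 4647 to 7501 in dendritic cells. Socs3 itself was not called between T and dendritic cells (log2 −0.04, SE 0.32, edgeR adjusted p = 0.979). With the broader dendritic gate of 903 cells it was called, lower in T cells (log2 −0.68, edgeR adjusted p = 0.0234). The 3 genes whose log2 levels followed Socs3 most closely over the 19 gate-by-library sums were Klf4 (Pearson r = 0.90), Fos (0.87) and Egr1 (0.85), out of 2205 genes; the last 2 belong to that handling list, and the sums share libraries. The part of handling in the Socs3 values was not tested.

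Pim1, a serine/threonine kinase gene induced by STATs that promotes survival, was a myeloid transcript. Dendritic cells had 809, 1250, 2004 and 782 in P45, P50, P63 and P50_Depil5D. Macrophages had 614, 542, 1113, 1930 and 990 in P45, P50, P63, P80 and P50_Depil5D, and T cells 488, 286, 806, 658 and 268 in that order. T cells were below macrophages in 5 of 5 libraries and below dendritic cells in 4 of 4, though the ranges overlapped because Pim1 moved with the library in each gate.

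The log2 difference of T cells was −1.12 to macrophages (SE 0.21, edgeR adjusted p = 3.43e-06) and −1.36 to dendritic cells (SE 0.23, edgeR adjusted p = 3.23e-07). Keratinocytes, at 92.2, 164, 111, 152 and 283, were the lowest, with differences of 2.68 from dendritic cells (SE 0.24, edgeR adjusted p = 1.36e-24) and 2.44 from macrophages (SE 0.22, edgeR adjusted p = 2.93e-24). T cells exceeded keratinocytes in 4 of 5 libraries (log2 1.32, SE 0.22, edgeR adjusted p = 1.63e-08), with P50_Depil5D the exception. Thinned to 1000 UMIs, 52.0% of dendritic cells, 40.4% of macrophages, 22.9% of T cells and 15.3% of keratinocytes had a Pim1 UMI. The difference of dendritic cells to macrophages was within its spread (0.24, SE 0.23, edgeR adjusted p = 0.729). The genes most like Pim1 over the 19 sums were Actb (r = 0.93), Cd83 (0.91) and Gm2a (0.91). Pim1 overlaps the antisense gene Gm26885.

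**Figure D2:**
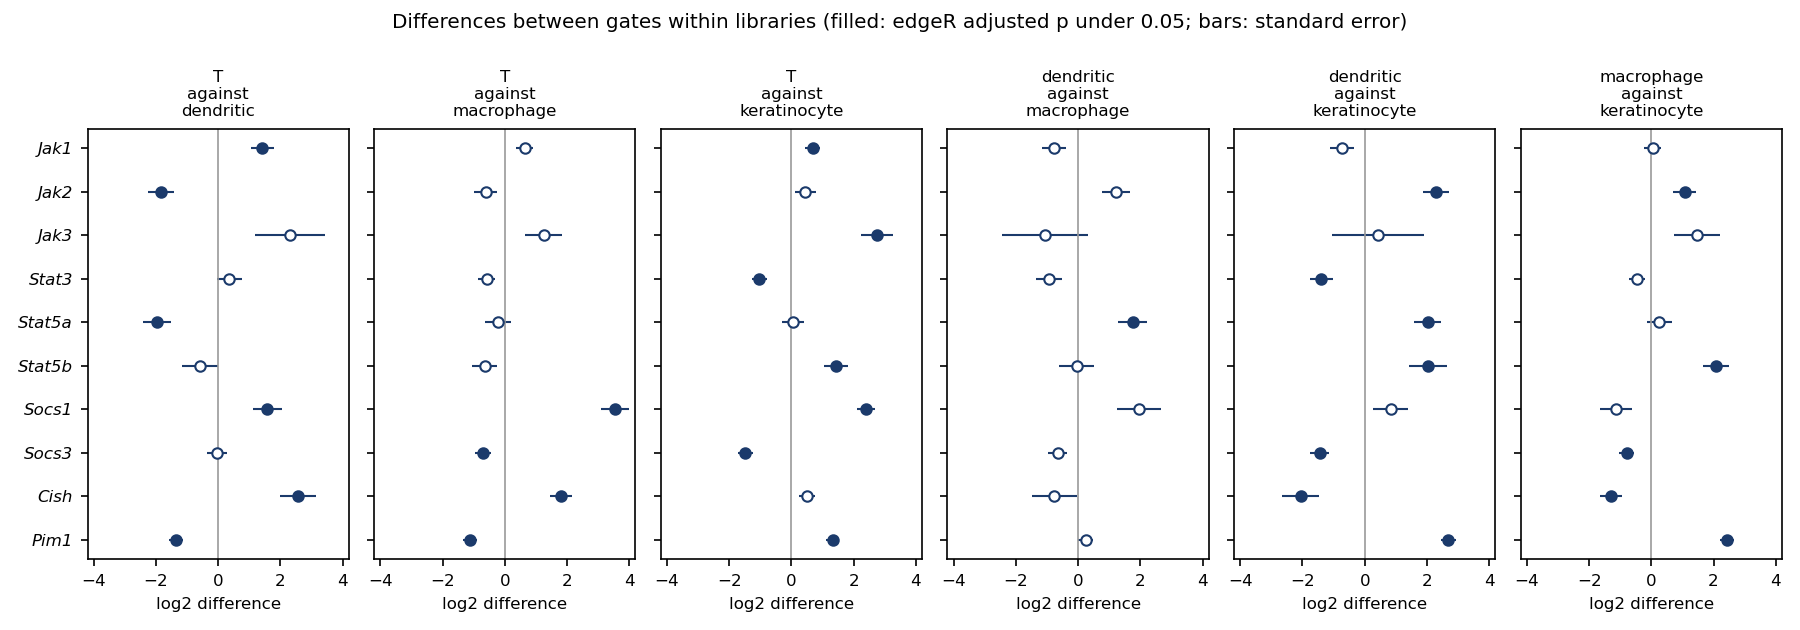
Differences between gates within libraries on the log2 scale (horizontal axis; above 0 is higher in the first-named gate) for the 10 genes, with bars of 1 standard error and filled points where the edgeR adjusted p was under 0.05. Socs1 in T cells against macrophages stands farthest from 0, at 3.54, and Stat5a is the only filled point of dendritic cells against macrophages.

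Without cells of shared barcodes, the remaining calls against keratinocytes kept their direction and their side of the threshold. For T cells, Jak1 then differed by 0.84 (edgeR adjusted p = 0.0105), Stat5b by 1.31 (0.0165), Socs1 by 2.01 (2.92e-08) and Pim1 by 1.19 (2.41e-05). For dendritic cells the differences were 2.62 in Jak2 (edgeR adjusted p = 2.06e-06), −1.30 in Stat3 (0.0141), 2.30 in Stat5a (4.27e-05), −1.02 in Socs3 (0.0207), −1.81 in Cish (0.0255) and 2.38 in Pim1 (4.52e-16). For macrophages they were 1.45 in Jak2 (edgeR adjusted p = 0.00613), 1.93 in Stat5b (0.000580), −1.06 in Cish (0.0302) and 1.99 in Pim1 (1.97e-13). Socs1, at a log2 difference of macrophages to keratinocytes of −1.13 with all cells (edgeR adjusted p = 0.0651), was called without them (−1.54, adjusted p = 0.0181).

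For the other abundant members, the closest patterns over the 19 sums were Cdc42ep3 (r = 0.90), Sept1 (0.87) and Itgae (0.86) for Jak1, and Ets2 (0.84), Luzp1 (0.74) and Rnase4 (0.74) for Stat3.

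The mural gate held 14 cells, 5, 5, 1, 3 and 0 by library, and 36181 UMIs in all, so it allows only a pooled description. Socs3 had 16 UMIs there, or 442 CPM (exact interval 253 to 718), of which 10 came from the 3 cells of P80. Pim1 had 7, all from P50, and Stat3 had 6. Jak3, Stat5a and Socs1 had none, which allows up to 82.9 CPM each. The handling genes summed to 28550 CPM in the P80 mural cells and to 4575 in those of P45.

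Other genes of the pathway were taken from lists of receptors, inhibitors and targets, chosen with earlier results of these data known. Of 10 receptor genes of the gamma chain and related families, 7 were higher in T cells than in keratinocytes and 1 was lower, with a median log2 difference of 2.87, where the median of all genes tested was −0.09 and 45.8% of them were called in either direction. Il2rb, the beta chain of the interleukin-2 receptor, was at 261 ± 107 (SD, n = 5 libraries) in T cells and at 4.67 to 21.9 in keratinocytes (log2 4.40, edgeR adjusted p = 9.21e-41). Against macrophages, where 25.1% of all genes were called, 5 of the 10 were higher in T cells and 3 lower; the latter were the 3 chains of the receptor for granulocyte-macrophage colony-stimulating factor and its kin. Csf2ra, its alpha chain, was at 597 ± 375 in macrophages and at 18.9 to 141 in T cells (log2 of T to macrophage −3.39, edgeR adjusted p = 5.36e-31). The gamma chain Il2rg, partner of Jak3, was at 346 ± 97.0 in T cells, 66.2 ± 24.9 in macrophages and from 4.67 to 31.1 in keratinocytes.

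Of the 10 receptors of the interleukin-6 and interferon families, 4 were lower in T cells than in macrophages and none was higher, with a median of −0.75 against 0.13 for all genes, of which 25.1% were called in either direction. In T cells against keratinocytes 6 of the 10 were higher and 2 lower, with a median of 1.32 against −0.09 for all genes, of which 45.8% were called. The oncostatin M receptor gene Osmr was at 33.3 ± 10.8 in keratinocytes, while T cells held 3 UMIs, macrophages 1 and dendritic cells none (log2 of macrophage to keratinocyte −4.91, edgeR adjusted p = 1.13e-09). Its ligand Osm, itself counted among the targets, was at 39.2 ± 18.3 in macrophages and 0.447 ± 0.621 in keratinocytes (log2 5.61, edgeR adjusted p = 1.37e-19). Il6st, the gp130 chain, was detected in all 4 gates, from 19.9 ± 11.3 in T cells to 52.2 ± 16.2 in dendritic cells (n = 4).

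Of 11 target and survival genes tested, 7 were higher in T cells than in macrophages and 2 lower (median 0.73 against 0.13 for all genes, of which 25.1% were called). Ccnd2, a cyclin of the G1 phase, was at 662 ± 25.2 in T cells and 26.0 ± 16.6 in macrophages (log2 4.24, edgeR adjusted p = 3.97e-38). Pim2, a relative of Pim1, was at 76.9 ± 30.4 in T cells and 1.77 ± 2.75 in macrophages (4.52, edgeR adjusted p = 2.43e-15), the opposite order to Pim1. Mcl1, a survival gene, was lower in T cells than in macrophages, as Pim1 was, at 105 ± 48.5 and 501 ± 70.9 (−2.34, edgeR adjusted p = 9.95e-19). Its order over all gates tested was not that of Pim1. Its mean was lowest in T cells and not in keratinocytes, which were at 126 ± 20.2. Among 13 other inhibitors, Socs2 was at 38.2 ± 2.82 in T cells and at 1.27 to 4.61 in keratinocytes (3.26, edgeR adjusted p = 1.15e-14), and 2 of the 13 were higher and 3 lower in T cells than in keratinocytes, where 45.8% of all genes were called. Stat4, which carries interleukin-12 signals, was at 11.1 ± 4.44 in T cells and higher there than in keratinocytes (log2 3.35, edgeR adjusted p = 1.80e-06). An analysis without cells of shared barcodes was added after seeing the data. Of the gamma chain list, 7 genes were again higher and 1 lower in T cells than in keratinocytes. Of the other inhibitors, 2 were higher and 2 lower. The share of all genes called in that analysis is not given here. Il2rb then had a log2 difference of 4.24 (edgeR adjusted p = 4.91e-31), Socs2 one of 3.08 (edgeR adjusted p = 2.55e-10) and, for macrophages against keratinocytes, Osm one of 5.72 (edgeR adjusted p = 1.25e-16) and Osmr one of −6.45 (edgeR adjusted p = 2.83e-09).

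Within the T gate, Cish and Pim1 were higher in cells with regulatory markers. These were 422 cells with a UMI of at least 2 of Foxp3, Ctla4, Ikzf2, Tnfrsf4, Tnfrsf18 and Tnfrsf9; 1435 other T cells remained. Foxp3, which defines regulatory T cells, was detected in only 15.4% of the marked cells, so the set is named here by its markers; activated T cells can carry several of them. Cish was at 83.4, 160, 137, 140 and 148 in marked cells of P45, P50, P63, P80 and P50_Depil5D, and at 53.8, 28.7, 121, 128 and 47.8 in the others. The marked cells were higher in 5 of 5 libraries, by a wide margin in P50 and P50_Depil5D and a narrow one in P63 and P80 (log2 1.15, SE 0.25, edgeR adjusted p = 0.000372 over 10158 genes). In P63 and P80 the whole T gate held 32 and 10 Cish UMIs, so the direction in those libraries is uncertain. Pim1 was at 569, 597, 987, 1305 and 600 in marked cells and at 438, 175, 744, 404 and 172 in the others, again higher in 5 of 5 (1.04, SE 0.16, edgeR adjusted p = 2.18e-08).

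These were 2 of 10 members called, where 2.03% of all genes were. The marked cells were deeper, with a median of 1890 UMIs against 1329; the part of depth in the split was not tested. The Cish call was lost by DESeq2 (adjusted p = 0.263), without P50 (0.448) and without P50_Depil5D (0.107). Without the block both calls were lost, with adjusted p = 0.699 for Cish and 0.752 for Pim1. Stat3 was higher in marked cells in 5 of 5 libraries, but its log2 difference of 0.80 (SE 0.26) was not called (edgeR adjusted p = 0.0780). The same held for Stat5a (0.83, SE 0.49, edgeR adjusted p = 0.637) and Stat5b (0.95, SE 0.48, edgeR adjusted p = 0.481). Jak2 was higher in 4 of 5 and not called (1.08, SE 0.44, edgeR adjusted p = 0.265). Socs1 and Jak1, both higher in T cells than in dendritic cells and keratinocytes, had differences within the T gate of −0.02 (SE 0.25) and −0.05 (SE 0.20) and were not called.

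**Figure D3:**
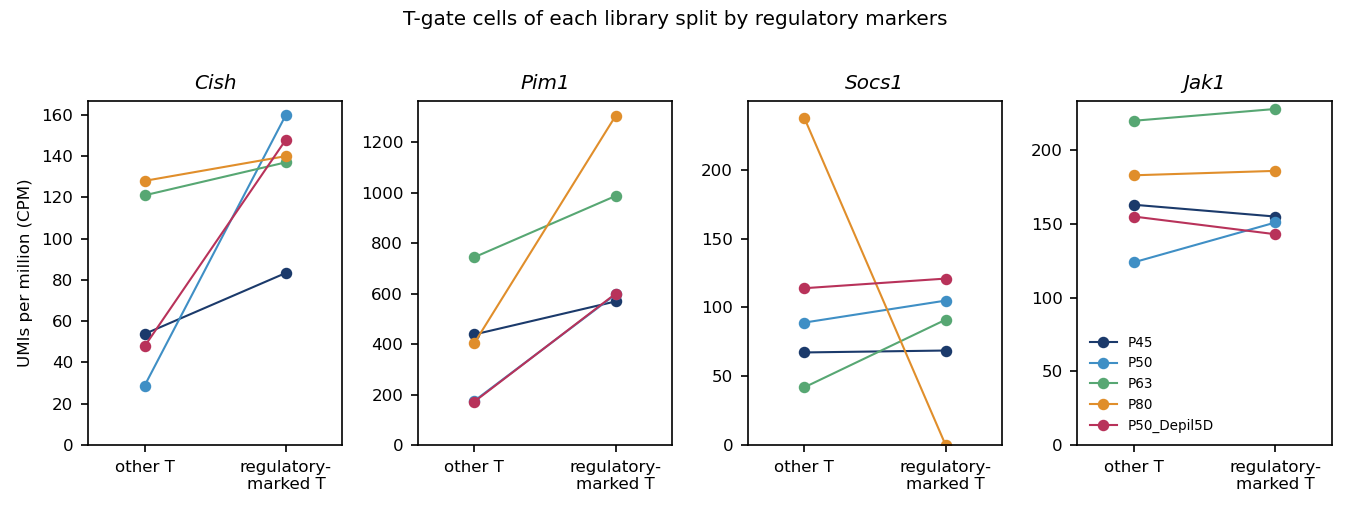
CPM (vertical axis, from 0) of 4 genes in T-gate cells with and without regulatory markers, with a line joining the 2 sums of each library. Lines of Cish and Pim1 rise in 5 of 5 libraries, while those of Socs1 and Jak1 do not move one way.

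Between the youngest and the oldest undepilated library, the highest ratio among the members tested was that of Pim1 in macrophages. It was at 614, 542, 1113 and 1930 in P45, P50, P63 and P80, and the ratio of P80 to P45 was 3.14 (exact 95% counting interval 2.51 to 3.90). Socs3 in macrophages was at 192, 117, 191 and 406, with a ratio of 2.12 (1.27 to 3.36) that rests on 20 UMIs in P80. Socs1 in T cells was at 67.8, 93.2, 54.5 and 171, a ratio of 2.52 (1.28 to 4.59) on 13 UMIs in P80.

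Of 14 members by gate with a mean of at least 50 CPM, those 3 were past 2-fold (on log2 of the level plus 10), where 15.6% of all genes were in T cells, 18.6% in macrophages and 5.45% in keratinocytes. The median of all genes was itself raised, by 0.19 in T cells and 0.11 in macrophages on the log2 scale. With TMM scaling none of the 3 was past 2-fold, and the cause of this change was not tested: the ratio of Pim1 in macrophages was 1.84 (1.47 to 2.28), that of Socs3 1.24 (0.745 to 1.97) and that of Socs1 in T cells 1.70 (0.865 to 3.09), and the intervals of the last 2 include 1. Without shared barcodes the Pim1 ratio was 2.50 (1.77 to 3.44).

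In keratinocytes Pim1 had a ratio of 1.65 (1.28 to 2.12; 1.85, 0.910 to 3.39, without shared barcodes) and Socs3 of 1.41 (1.22 to 1.64), while Jak1 was at 80.9 and 80.7 and Stat3 at 114 in both. In T cells the Pim1 ratio was 1.35 (0.989 to 1.81), and 0.910 with TMM scaling. The handling genes in macrophages summed to 9561, 5322, 9585 and 11781 in P45, P50, P63 and P80, lowest in P50 and highest in P80 as Socs3 and Pim1 were. Their part in the ratios was not tested, and age cannot be told apart from the library.

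After depilation, the members abundant enough to compare in T cells were close to their P50 levels. Pim1 in T cells was at 268 in P50_Depil5D and 286 in P50, a ratio of 0.935 (0.785 to 1.11). Socs3 had a ratio of 0.966 (0.755 to 1.24), Cish 1.11 (0.771 to 1.60), Socs1 1.24 (0.926 to 1.66) and Jak1 1.16 (0.909 to 1.49), so an effect of 2-fold lay outside each of these counting intervals. Pim1 moved in the other gates: it was at 990 against 542 in macrophages (1.83, 1.47 to 2.27), at 283 against 164 in keratinocytes (1.73, 1.39 to 2.15, and 1.91 without shared barcodes) and at 782 against 1250 in dendritic cells (0.626, 0.436 to 0.888). With an unmixed gate, whose cells had at most 1 marker of any other class, the keratinocyte ratio was 1.22 (0.792 to 1.87) and the dendritic one 0.759 (0.518 to 1.10), so both intervals then held 1.

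Of 21 members by gate tested, 1 was past 2-fold, Stat3 in dendritic cells, from 2 UMIs against 8 (0.326, 0.0337 to 1.63); with a looser gate it was 1.04. The share of all genes past 2-fold was 0.577% in T cells, 20.8% in dendritic cells, 9.05% in macrophages and 0.909% in keratinocytes. Stat3 in keratinocytes had a ratio of 1.34 (1.02 to 1.77) and Socs3 was at 226 against 225 (0.814 to 1.23). In this gate 137 of 202 cells of P50 and 131 of 201 of P50_Depil5D had a shared barcode. The counting intervals take the libraries as independent, which may not hold here. The Stat3 and Socs3 ratios and the 0.909% are not given without those cells.

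**Figure D4:**
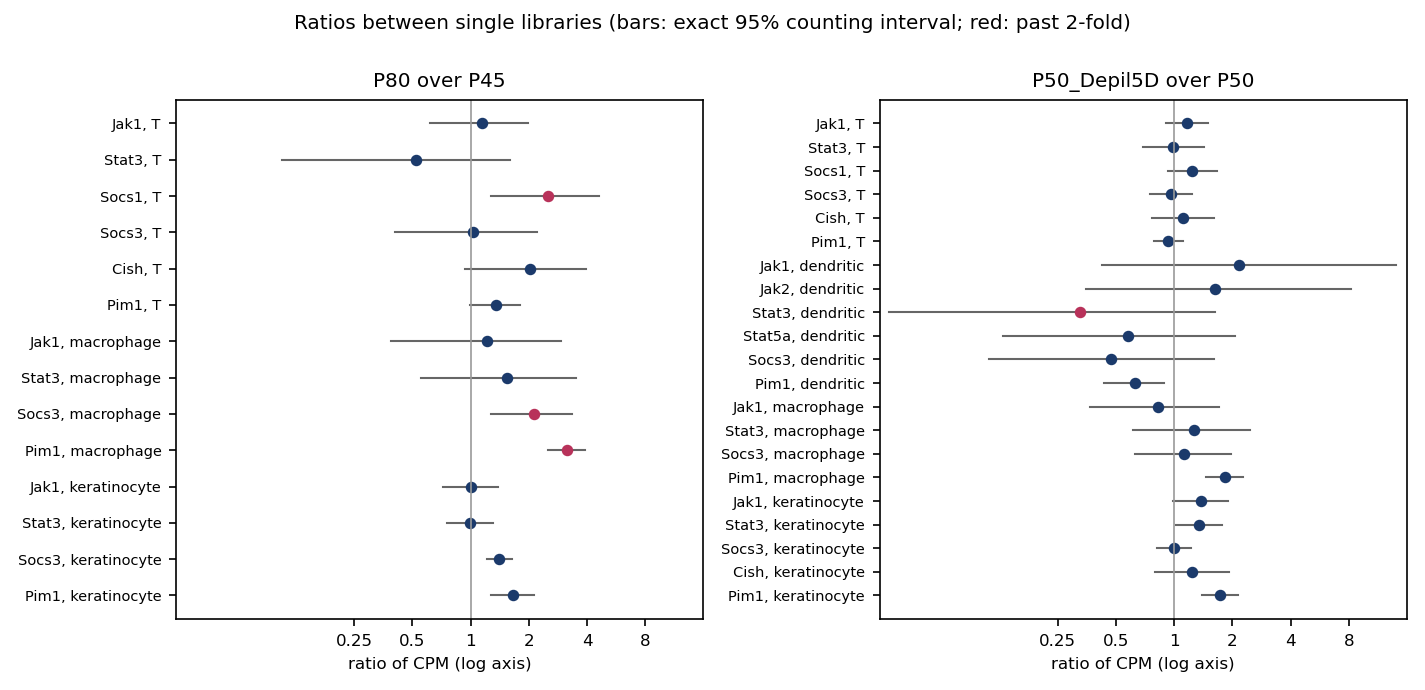
Ratios of CPM (horizontal log axis; 1 is no change) of P80 over P45 and of P50_Depil5D over P50 for each gene and gate with enough counts, with exact 95% counting intervals. Red points were past 2-fold: Pim1 and Socs3 in macrophages and Socs1 in T cells on the left, and Stat3 in dendritic cells on the right.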

How the data were processed

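Live CD45+ dermal cells had been sequenced as 10x 3′-end libraries, per the labels' protocols. The authors deposited a matrix of whole-number UMI counts, a gene list and a barcode list for each library; Seurat and mm10 are named in the submitters' processing notes without a role. Which aligner and counter were used, whether strand was used, and how cells were called is not given in the sources used here.

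Kept were cells with 200 or more detected genes whose mitochondrial share of UMIs did not exceed 10%. No doublet caller was run; a cell with markers of several classes entered no gate unless 1 class led by 2 markers, and an unmixed gate that allowed at most 1 marker of any other class was tried. Counts were summed per gate and library (at least 10 cells) and tested with edgeR 4.0.16 in R 4.3.3 (TMM scaling, library as a block, genes with at least 10 UMIs and a UMI in at least 3 sums). The pairing is by library, since each library holds cells of every gate but the mural. Pairs with the dendritic gate rest on 4 libraries, because P80 held 6 such cells. On simulated counts of T against macrophage sums (12787 genes), the test recovered 70% of 4-fold and 8% of 2-fold changes, with 1.27% of calls false. Those counts had a common profile for all gates, a fixed spread and no library effect. Only well-counted genes were changed, 100 at each fold. The rates describe that setting and cannot be carried over to the members, some of which were scarce. Ratios between libraries carry exact conditional Poisson intervals (95%), and shares exact binomial ones; both cover counting error only. The deepest library held 7491878 UMIs and the shallowest 1032621, so values of P80 are the least precise.

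The 10 members, the gates, the split markers and the pathway lists were chosen with earlier results of these data known. Genes named besides the members were, for each member with a mean of at least 50 CPM, the 3 with the highest Pearson r over the sums, and up to 3 called genes by fold from each pathway list, plus genes named after their values were seen (Il2rg, Il6st and Mcl1). Alternatives were DESeq2 1.42.0, unscaled totals, other filters and gates, no shared barcodes, no cells with a low share of ribosomal pseudogenes, no block, and leaving out each library. Positions are from GENCODE vM21. All symbols asked for were found.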

Additional observations from a re-analysis of the deposited data

Results flagged for a closer look

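Cells that entered no gate, 2413 of 6162, belong to no comparison above but held every member. Pooled over libraries, they were at 77.0 CPM for Jak1, 46.3 for Jak2 and 4.27 for Jak3. The STAT genes were at 73.6 for Stat3, 27.5 for Stat5a and 13.8 for Stat5b. Socs1 was at 21.8, Socs3 at 202, Cish at 38.4 and Pim1 at 716. These levels are above what a count of 0 would allow, and the cells behind them were not named.

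The ratio of Pim1 in P50_Depil5D to P50 pointed up in macrophages (1.83) and keratinocytes (1.73) and down in dendritic cells (0.626). With 1 library on each side the difference between these gates was not tested.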

How the results depend on the processing

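Of 30 calls between gates, 19 held in every alternative run, and no call changed direction; over all members and pairs, 989 values kept their side of the threshold, 25 came to pass it and 29 no longer passed it. The number of calls was 15 of 30 comparisons under the stricter gate, where the dendritic gate fell out, and 24 to 30 when 1 library was left out. For T cells with regulatory markers, 2 calls became 1 under DESeq2 and 0 under the fit with no replicate block (library), and leaving out 1 library gave 1 to 3. For depilation, 1 member by gate past 2-fold became 3 with 1 CPM in place of 10 added, and 0 under the looser and the stricter gate; the ratio of Stat3 in dendritic cells was 1.04 under the looser gate. For P80 against P45, 3 became 1 with TMM scaling, which was none of those 3, and 6 without shared barcodes. The causes were not tested. The shares of all genes under these alternatives are not given here, so the changed counts cannot be read as a property of the members. A split of dendritic cells by maturity markers was not fitted, since only P45 met the minimum of 10 cells in both sets. Depth limits Jak3, Stat5a, Stat5b and every value of P80.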

Other observations

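In the dendritic gate, 31 cells carried at least 3 of the 6 maturity markers Ccr7, Fscn1, Ccl22, Il4i1, Ccl17 and Cacnb3, and 92 did not. Pooled over libraries, Socs3 was at 48.3 CPM in the marked cells (exact interval 15.7 to 113, from 5 UMIs) and at 150 in the others (110 to 201, from 46 UMIs). Pim1 was at 1197 (995 to 1427) and 945 (839 to 1060), and Jak2 at 125 (66.8 to 215) and 71.9 (45.1 to 109). Stat5a was at 67.6 (27.2 to 139) and 62.1 (37.4 to 97.0). For each of these genes, Socs3, Pim1, Jak2 and Stat5a, the intervals of both sets overlapped. Of the 31 marked cells, 16 came from P45. The intervals cover counting error only, and no test over libraries was run, since only P45 had at least 10 cells in both sets.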
